A study of Mus musculus with 8 samples.

Results

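The core circadian clock genes of the mouse liver were examined as 10 genes: the activators *Arntl*, *Clock* and *Npas2*, the repressors *Per1*, *Per2*, *Per3* and *Cry1*, the nuclear receptor genes *Nr1d1* and *Nr1d2*, and the output gene *Dbp*. They were taken by name from the 45706 gene identifiers of the count table through the GENCODE annotation of GRCm38, and all 10 were among the 15491 genes that passed the filter on low counts. The livers came from 8 male mice of strain C56B6/J, as the labels spell it. Of these, 4 are labelled *Srsf10-kd* and 4 are labelled *Ctrl* (genotype label WT). Each mouse was injected in the tail vein at 6 weeks of age with an AAV2/8 virus in which a chicken β-actin promoter drives GFP and a mirE/shRNA, an artificial microRNA, against *Srsf10* in one group and a control sequence in the other. A high fat diet with 60% of calories from fat began 4 weeks after injection in both groups and lasted 12 weeks. Mice were kept under 12-h light and dark cycles, and the clock time at which each liver was collected and any fast before it are not given in the sources used here. The series compared livers with and without SRSF10 knock-down. The clock genes were used to ask whether the groups differed in them and how their balance varied from liver to liver.

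The clock is a loop of transcription factors that takes about a day to turn. BMAL1, encoded by *Arntl*, pairs with CLOCK or its relative NPAS2 on E-box sequences and switches on the *Per*, *Cry*, *Nr1d1*, *Nr1d2* and *Dbp* genes. PER and CRY proteins then block the activators, and REV-ERBα and REV-ERBβ, encoded by *Nr1d1* and *Nr1d2*, silence *Arntl* and *Npas2* through RORE sequences. In the liver of mice kept in light and dark, *Arntl* and *Npas2* RNA is therefore high at the opposite time of day to *Nr1d1*, *Dbp* and *Per3* RNA, with *Per1*, *Per2* and *Cry1* following at later times. The liver uses this loop to time glucose, lipid and bile acid metabolism, and feeding time can set it.

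The RefSeq promoter windows of GRCm38.p6, which run from 250 bases before to 50 bases after each annotated start, were searched for 4 motifs on both strands, and they are shown because the loop acts through such letters. The motifs were the E-box CACGTG, present in 7.15% of all 32851 windows, its variant CACGTT (4.68%), the D-box TTATGTAA that DBP binds (0.938%), and the RORE core TAGGTCA (2.61%). In the stretches printed no motif shares bases with another. Of the 10 genes, 9 had windows (13 in all), and 5 of the 9 held at least 1 motif. The percentages above are per window and per motif, so they are not a background for this count of genes. The share of all genes with any of the 4 motifs was not computed. The sequences below are on the strand of the gene, 5′ to 3′, with the motif in capitals (AACGTG is CACGTT on the other strand). In *Arntl* the RORE core began 30 bases after the start, in *Per1* the E-box lay 166 bases before it, and in *Per3* the D-boxes lay 205 and 158 bases before it. The RefSeq start of *Per1* used here lies inside the gene as GENCODE annotates it, which begins at 69095217 on chromosome 11. *Cry1* held CACGTT and CACGTG at 79 and 60 bases before its start and *Nr1d1* held CACGTT at 28. A match describes the letters and is not shown to be a bound site, and a window without one says nothing about the factor.
Arntl, chr7:113207530-113207558 (+): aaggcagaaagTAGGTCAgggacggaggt
Per1, chr11:69098753-69098818 (+): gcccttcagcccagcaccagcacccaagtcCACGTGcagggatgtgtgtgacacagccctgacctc
Per3, chr4:151044786-151044900 (-): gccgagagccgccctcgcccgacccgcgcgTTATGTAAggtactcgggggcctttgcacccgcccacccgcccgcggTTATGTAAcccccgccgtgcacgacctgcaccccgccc
Cry1, chr10:85185079-85185163 (-): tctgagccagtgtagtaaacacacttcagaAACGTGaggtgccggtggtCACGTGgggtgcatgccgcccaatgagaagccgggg
Nr1d1, chr11:98775378-98775435 (-): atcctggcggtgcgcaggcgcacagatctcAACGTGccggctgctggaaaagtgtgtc

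Each liver had 50456404 to 59697241 counts on genes. *Srsf10*, the targeted gene, was at 36.4 ± 3.24 CPM (SD, n = 4) in the *Srsf10-kd*-labelled livers and 32.9 ± 1.99 CPM (SD, n = 4) in *Ctrl* livers, where CPM is the count of a gene scaled with TMM to a library of common size. By these counts per gene its RNA was thus not lower in the livers that carry the knock-down label (log2 fold change 0.15, edgeR quasi-likelihood adjusted p = 0.378). The study reported less SRSF10 protein by western blot, and less *Srsf10* RNA by qPCR, in livers of mice given the knock-down virus. The groups are named here by their labels alone. One library stood apart from the rest. *Srsf10-kd* 3 was at 67.4 on the first principal component (44.8% of the variance) and the other 7 livers lay between -41.8 and 11.5. The log2 CPM of each gene in a liver, minus its mean over the 8 livers, was fitted on log2 transcript length. In *Ctrl* 3 this relative slope was -0.03, against 0.09 to 0.13 in the other *Ctrl* livers and -0.18 to -0.02 in the *Srsf10-kd*-labelled livers. Values that moved by over 1.5 times without *Ctrl* 3 or *Srsf10-kd* 3 are given below for the clock genes.

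By edgeR's quasi-likelihood test with an adjusted p under 0.05, the groups differed in 0 of the 10 clock genes, where 11 of 15491 genes (0.071%) did. At an unadjusted p under 0.05 there was 1 of 10, *Clock*, against 21.8% of all genes tested. *Clock* was also the single clock gene whose groups did not overlap, against 14.3% of all genes (6.73% with the *Srsf10-kd*-labelled livers higher and 7.53% with them lower). DESeq2 called 1 of 10 clock genes and 5.27% of all genes, and limma-voom, with a quality weight for each library, called 1 of 10 and 11.7% of all genes. Without *Ctrl* 3 and *Srsf10-kd* 3, a choice made after the data were seen, edgeR called 1 of 10 and 8.62% of all genes. In each of these cases the gene was *Clock*. By fitted log2 fold change 3 of the 10 genes were higher and 7 lower in the *Srsf10-kd*-labelled livers, with a median of -0.14, where 7954 of the 15491 genes were higher and the median was 0.01. A different level in whole liver can come from less RNA per cell or from fewer cells of a type, and counts per gene cannot tell these apart.

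**Figure D1:**
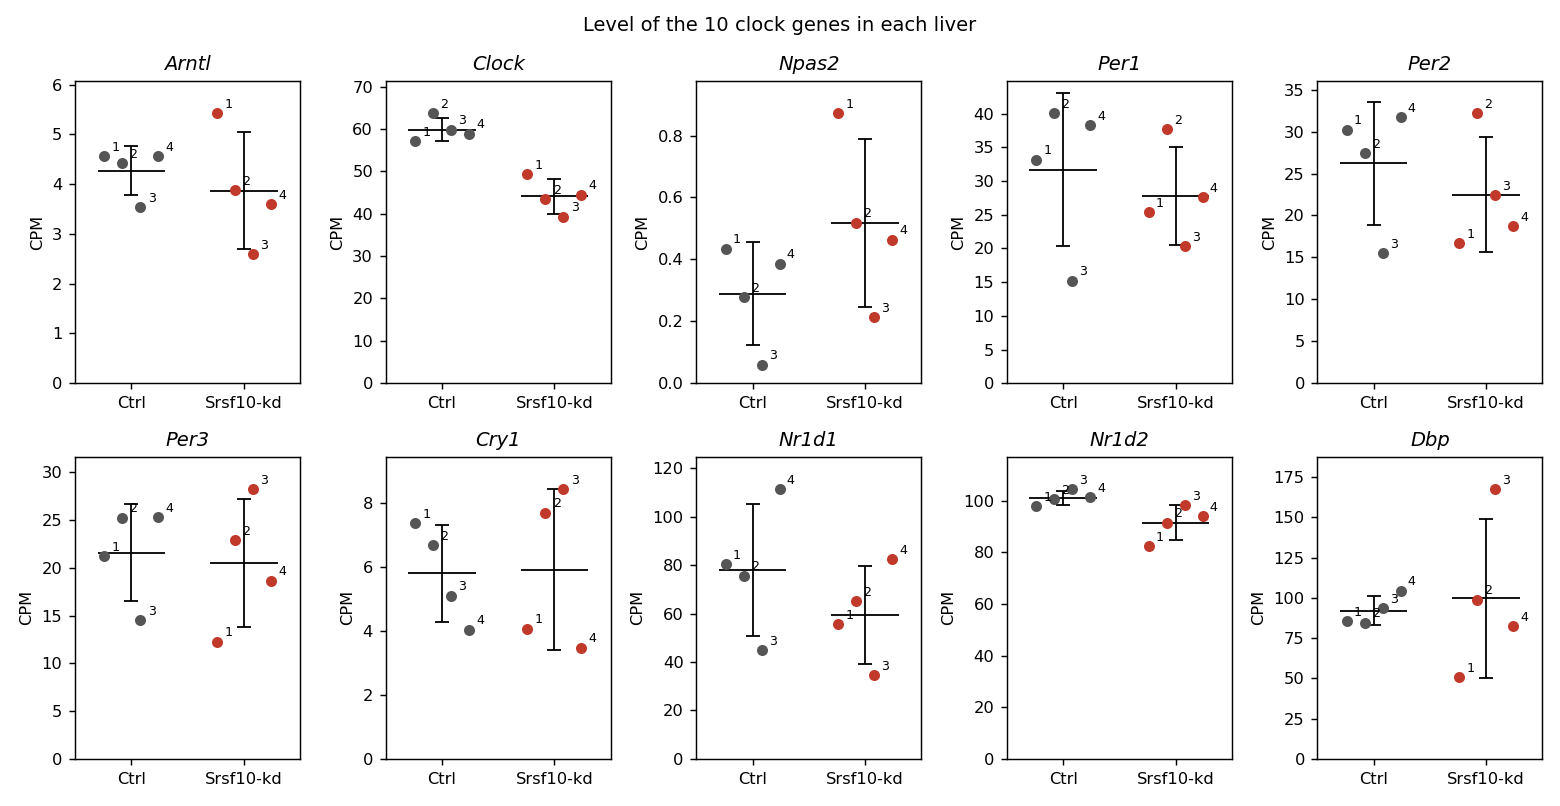
CPM (linear axis from 0) of each clock gene in the 4 *Ctrl* livers (grey) and the 4 *Srsf10-kd*-labelled livers (red). Points are livers with their replicate number, horizontal lines are means and bars are 1 SD. *Clock* is the panel in which the groups do not overlap, and *Srsf10-kd* 3 is highest for *Dbp* (167 CPM) and lowest for *Nr1d1* (34.5 CPM).

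*Clock* (ENSMUSG00000029238, chromosome 5 from 76209868 to 76304792) encodes the activator that pairs with BMAL1. Its level was 57.2, 63.7, 59.8 and 58.9 CPM in *Ctrl* 1 to 4 and 49.3, 43.5, 39.3 and 44.5 CPM in *Srsf10-kd* 1 to 4. The groups did not overlap, and the highest *Srsf10-kd*-labelled liver was below the lowest *Ctrl* liver. The means were 44.1 ± 4.13 and 59.9 ± 2.76 CPM (SD, n = 4 each), with a log2 fold change of -0.44 (standard error 0.10, edgeR unadjusted p = 0.00137, edgeR quasi-likelihood adjusted p = 0.114). A two-sided exact permutation test gave p = 0.0286, the smallest that 4 livers against 4 allow. The adjusted p was 0.00452 with DESeq2, 0.0145 with limma-voom, and 0.0335 with edgeR when *Ctrl* 3 and *Srsf10-kd* 3 were left out (log2 fold change -0.39). Leaving out 1 liver at a time kept the log2 fold change between -0.50 and -0.39, with adjusted p from 0.0580 to 0.322.

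*Clock* has the longest annotated transcript of the 10 genes, at 9744 bases, and 13727 bases of exon sequence over all its transcripts together. Genes with long transcripts were on the whole lower in the *Srsf10-kd*-labelled livers, as the slopes above show. When the trend on transcript length, taken relative to the mean of the livers, was removed from each library, the log2 fold change of *Clock* was -0.13 (standard error 0.12, edgeR quasi-likelihood adjusted p = 0.611). Of the values in the plot of *Clock* under each fit, this is the one nearest to 0. The part of the length trend in the lower *Clock* counts cannot be told apart from a lower *Clock* level in this design.

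**Figure D2:**
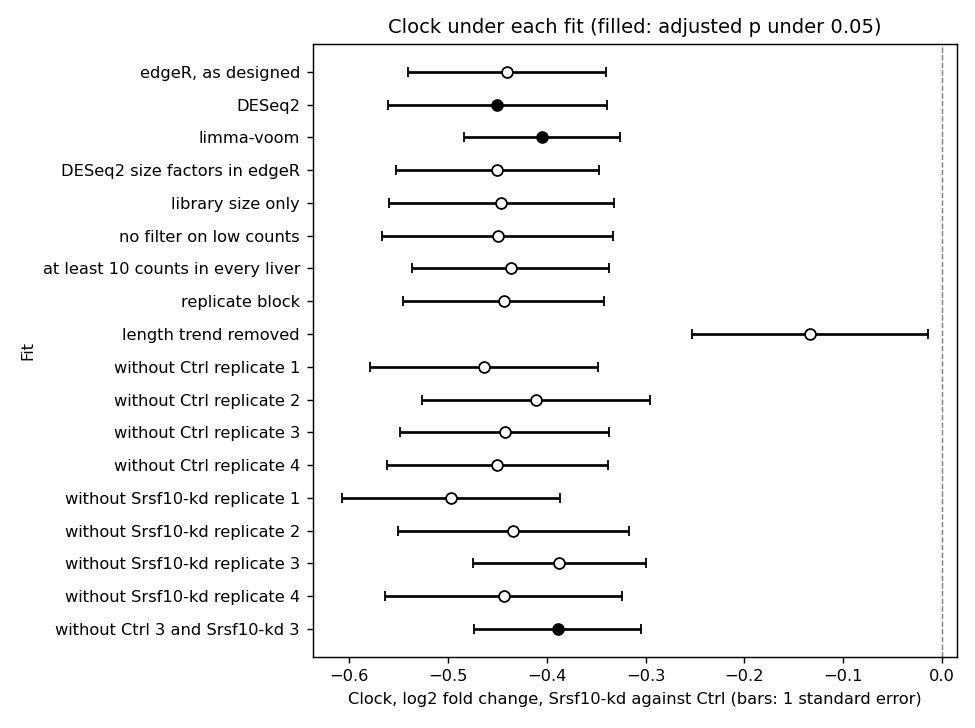
Log2 fold change of *Clock*, *Srsf10-kd*-labelled livers against *Ctrl* (horizontal axis, bars of 1 standard error), under each fit (vertical axis); filled points have an adjusted p under 0.05. All fits lie below 0, from -0.50 without *Srsf10-kd* 1 to -0.13 with the length trend removed.

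*Arntl* (ENSMUSG00000055116, chromosome 7 from 113207465 to 113314126), which encodes BMAL1, was at 4.57, 4.42, 3.54 and 4.56 CPM in *Ctrl* 1 to 4 and at 5.42, 3.88, 2.59 and 3.60 CPM in *Srsf10-kd* 1 to 4. The highest and the lowest liver were both labelled *Srsf10-kd*, and the groups overlapped. The log2 fold change was -0.14 (standard error 0.21, edgeR quasi-likelihood adjusted p = 0.698), and it was 0.01 without *Srsf10-kd* 3 and -0.22 without *Ctrl* 3. *Npas2* (ENSMUSG00000026077, chromosome 1 from 39193731 to 39363236), which encodes the partner that can stand in for CLOCK, was the least abundant of the 10 genes. Its counts were 25, 17, 3 and 22 in *Ctrl* 1 to 4 and 50, 27, 11 and 26 in *Srsf10-kd* 1 to 4. In CPM these were 0.434, 0.278, 0.0597 and 0.386, and 0.872, 0.519, 0.214 and 0.463. *Srsf10-kd* 1 was the highest and *Ctrl* 3 the lowest liver. Exact Poisson 95% intervals, which cover counting error only, ran from 0.647 to 1.15 CPM in *Srsf10-kd* 1 and from 0.0123 to 0.174 CPM in *Ctrl* 3, and the ratio of the 2 livers was 14.6 (4.72 to 73.2). Between the groups the difference did not pass the test (log2 fold change 0.82, standard error 0.51, edgeR quasi-likelihood adjusted p = 0.345; exact permutation p = 0.257), and the log2 fold change was 0.45 without *Srsf10-kd* 1 and 0.50 without *Ctrl* 3.

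Among the activators the balance between NPAS2 and CLOCK transcripts also varied. The log2 ratio of *Npas2* to *Clock* was -6.93, -7.66, -9.29 and -7.12 in *Ctrl* 1 to 4 and -5.76, -6.29, -7.30 and -6.48 in *Srsf10-kd* 1 to 4. *Npas2* was higher relative to *Clock* in *Srsf10-kd* 1, 2 and 4 than in any *Ctrl* liver, while *Srsf10-kd* 3 lay within the *Ctrl* range. The means were -6.46 ± 0.635 and -7.75 ± 1.07 (SD, n = 4 each).

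The *Per* genes encode repressors that act together with CRY proteins. *Per1* (ENSMUSG00000020893, chromosome 11 from 69095217 to 69109960) was at 33.2, 40.0, 15.2 and 38.3 CPM in *Ctrl* 1 to 4 and at 25.4, 37.7, 20.4 and 27.6 CPM in *Srsf10-kd* 1 to 4. *Per2* (ENSMUSG00000055866, chromosome 1 from 91415982 to 91459324) was at 30.2, 27.4, 15.5 and 31.7 CPM, and at 16.7, 32.2, 22.5 and 18.7 CPM, in the same order. Both genes were lowest in *Ctrl* 3. *Per3* (ENSMUSG00000028957, chromosome 4 from 151003652 to 151044665) was at 21.2, 25.2, 14.5 and 25.3 CPM in *Ctrl* 1 to 4 and at 12.3, 22.9, 28.2 and 18.7 CPM in *Srsf10-kd* 1 to 4. *Per3* departed from *Per1* in *Srsf10-kd* 3, which had the highest *Per3* but the second lowest *Per1* of the 8 livers. For all 3 genes the groups overlapped. The log2 fold changes were -0.19 for *Per1* (standard error 0.29, adjusted p = 0.697), -0.22 for *Per2* (0.25, adjusted p = 0.603) and -0.07 for *Per3* (0.25, adjusted p = 0.878), all with edgeR's quasi-likelihood fit. Without *Ctrl* 3 the log2 fold change was -0.42 for *Per1*, -0.41 for *Per2* and -0.22 for *Per3*, and without *Srsf10-kd* 3 it was -0.07 for *Per1* and -0.26 for *Per3*. *Per2* was at 0.00 with the length trend removed, and *Per3* was at 0.11 without *Srsf10-kd* 1 and 0.17 with the length trend removed. None of these values passed the threshold.

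*Cry1* (ENSMUSG00000020038, chromosome 10 from 85131700 to 85185064) encodes a repressor whose RNA follows the *Per* genes in the cycle. It was at 7.36, 6.67, 5.09 and 4.04 CPM in *Ctrl* 1 to 4 and at 4.06, 7.69, 8.42 and 3.47 CPM in *Srsf10-kd* 1 to 4. The *Srsf10-kd*-labelled livers fell on both sides of the *Ctrl* livers, with 2, *Srsf10-kd* 2 and 3, above all *Ctrl* livers. Its fitted log2 fold change was 0.03 (standard error 0.30, edgeR quasi-likelihood adjusted p = 0.963), and its sign changed in several alternatives, to -0.49 with limma-voom, -0.03 without *Ctrl* 3 and -0.19 without *Srsf10-kd* 3.

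*Nr1d1* (ENSMUSG00000020889, chromosome 11 from 98767932 to 98775333) encodes REV-ERBα, which silences *Arntl*. Its level was 80.3, 75.7, 44.98 and 111 CPM in *Ctrl* 1 to 4 and 55.5, 65.2, 34.5 and 82.5 CPM in *Srsf10-kd* 1 to 4. In each group replicate 3 was lowest and replicate 4 highest, although the numbers are not known to pair livers. Its fitted log2 fold change was -0.39 (standard error 0.30, edgeR quasi-likelihood adjusted p = 0.429) and it was -0.59 when *Ctrl* 3 was left out, -0.20 when *Srsf10-kd* 3 was and -0.18 when *Ctrl* 4 was, none of them past the threshold. With a block for replicate number the value was again -0.39, with a smaller standard error of 0.096 (edgeR quasi-likelihood adjusted p = 0.0830). *Nr1d2* (ENSMUSG00000021775, chromosome 14 from 18204054 to 18239127) encodes the relative REV-ERBβ. It was at 97.7, 101, 104 and 101 CPM in *Ctrl* 1 to 4 and at 82.4, 91.4, 98.2 and 93.8 CPM in *Srsf10-kd* 1 to 4. Only *Srsf10-kd* 3 reached into the narrow *Ctrl* range. Its log2 fold change was -0.14 (standard error 0.09, edgeR quasi-likelihood adjusted p = 0.372, exact permutation p = 0.0571), and it was -0.01 with the length trend removed. The REV-ERB genes thus varied to different degrees, with the highest level over the lowest at 3.23 for *Nr1d1* and at 1.27 for *Nr1d2*.

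*Dbp* (ENSMUSG00000059824, chromosome 7 from 45705088 to 45710203) encodes the D-box activator that carries the rhythm to many liver enzymes. Its level was 85.6, 84.4, 93.6 and 104 CPM in *Ctrl* 1 to 4 and 50.6, 98.9, 167 and 82.5 CPM in *Srsf10-kd* 1 to 4. *Srsf10-kd* 3 was the highest liver and *Srsf10-kd* 1 the lowest, with all *Ctrl* livers between them. The fitted log2 fold change was 0.12 (standard error 0.29, edgeR quasi-likelihood adjusted p = 0.823) and -0.25 without *Srsf10-kd* 3. The counts of *Dbp* and *Nr1d1* carry a limit, since the strand setting of the counting is not stated. Exons of *Sphk2* overlap 539 bases (18% of the exon sequence) of *Dbp*, and exons of *Thra* overlap 263 bases (8.55%) of *Nr1d1*, both on the opposite strand.

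Compared per kilobase of exon sequence, the genes spanned a wide range of levels. Over the 8 livers *Dbp* was at 32.1 ± 11.1 CPM per kb (SD, n = 8), *Nr1d1* at 22.4 ± 7.88 and *Nr1d2* at 17.8 ± 1.29. *Per1* (5.28 ± 1.61), *Per2* (4.16 ± 1.17), *Clock* (3.79 ± 0.657), *Per3* (2.19 ± 0.578) and *Cry1* (1.75 ± 0.573) followed, then *Arntl* (0.541 ± 0.114) and *Npas2* (0.0842 ± 0.0503). In this order of levels per kb, the ranges of neighbours over the livers were separate at 3 places, between *Nr1d2* and *Per1*, between *Cry1* and *Arntl*, and between *Arntl* and *Npas2*. All other neighbours overlapped. The length used was the exon sequence of all annotated transcripts together, which for *Arntl* is 7523 bases against 3995 in its longest transcript. The order and the gaps depend on this choice, and another length was not tried.

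Most of the clock genes varied more between livers of 1 group than a typical gene did. The within-group SD of log2 CPM was 0.257 for the median gene tested. It was 0.921 for *Npas2* (percentile 98.8 of the genes tested), 0.537 for *Nr1d1* (90.7), 0.530 for *Per1* (90.4), 0.529 for *Cry1* (90.3), 0.514 for *Dbp* (89.5), 0.449 for *Per3* (84.3) and 0.445 for *Per2* (84.0). *Arntl* was nearer to the median at 0.331 (66.9). *Clock* (0.106, percentile 8.06) and *Nr1d2* (0.0809, percentile 3.35) varied less than most genes. Counting error alone gives a log2 SD of 0.0198 to 0.0957 for 9 of the genes and 0.303 for *Npas2*. The spread between livers is also what the group comparison is measured against.

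The livers differed from each other in several clock genes at once. In *Srsf10-kd* 1, relative to the mean of the 8 livers on the log2 scale, *Arntl* (0.44) and *Npas2* (1.28) were high, and *Dbp* (-0.85), *Per3* (-0.72), *Per2* (-0.49) and *Cry1* (-0.45) were low. *Srsf10-kd* 3 had the reverse for these genes, with *Arntl* at -0.62, *Npas2* at -0.58, *Dbp* at 0.87, *Per3* at 0.47 and *Cry1* at 0.59, except for *Per2* (-0.06), and it had low *Nr1d1* (-0.91) as well. *Ctrl* 3 was low in *Npas2* and in several repressors, with *Npas2* at -1.96, *Per1* at -0.90, *Per2* at -0.59, *Nr1d1* at -0.53 and *Per3* at -0.49, while *Dbp* (0.03), *Arntl* (-0.17) and *Clock* (0.22) lay nearer to the mean. In *Srsf10-kd* 4 *Cry1* was low (-0.68) and *Nr1d1* high (0.35), and *Ctrl* 4 had the same combination (-0.46 and 0.78).

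**Figure D3:**
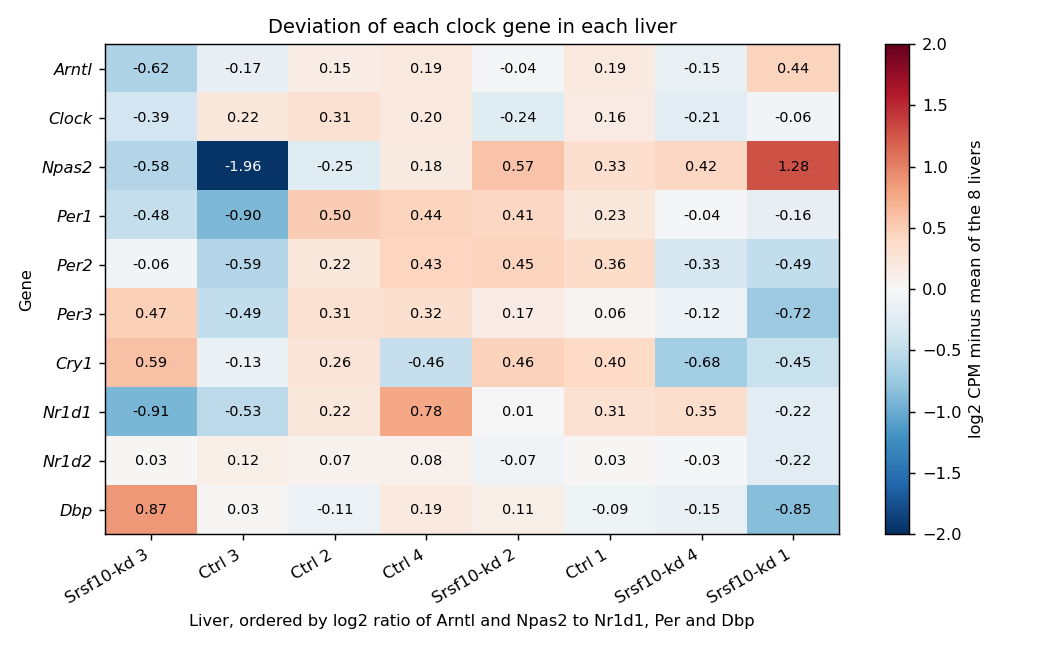
Log2 CPM of each clock gene (vertical) in each liver (horizontal) minus the mean of the 8 livers, in colour and as a number. Livers run from the lowest to the highest phase score. *Srsf10-kd* 3 at the left and *Srsf10-kd* 1 at the right differ in sign for *Arntl*, *Npas2*, *Per3*, *Cry1*, *Nr1d2* and *Dbp*.

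To describe the balance in each liver, a phase score was taken as the mean log2 CPM of *Arntl* and *Npas2* minus that of *Nr1d1*, *Per1*, *Per2*, *Per3* and *Dbp*. A higher score means more of the activator transcripts relative to the transcripts of the second set. A single difference of this kind, without collection times, does not place a liver at a time in the cycle. *Ctrl* 3, for example, was the lowest liver in both sets, with means of -0.773 and 4.759. The score was -4.87, -5.24, -5.53 and -5.20 in *Ctrl* 1 to 4 and -3.61, -4.92, -5.54 and -4.77 in *Srsf10-kd* 1 to 4. *Srsf10-kd* 1 stood above the other 7 livers, *Srsf10-kd* 3 and *Ctrl* 3 were lowest, and the groups overlapped. The range of 1.93 is 3.81-fold. The means were -4.71 ± 0.805 in the *Srsf10-kd*-labelled livers and -5.21 ± 0.271 in *Ctrl* livers (SD, n = 4 each), a difference of 0.50 that is below the SD of the first group. The difference was 0.14 when *Srsf10-kd* 1 was left out, 0.78 when *Srsf10-kd* 3 was and 0.40 when *Ctrl* 3 was.

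The score depended on *Npas2*, whose counts are low. With *Arntl* alone in its place, a choice made after the data were seen, the score was -3.22, -3.33, -2.92 and -3.48 in *Ctrl* 1 to 4 and -2.31, -3.51, -3.84 and -3.33 in *Srsf10-kd* 1 to 4. *Srsf10-kd* 1 was again highest and *Srsf10-kd* 3 again lowest, but *Ctrl* 3 moved from second lowest to second highest. The group means were then -3.25 ± 0.658 and -3.24 ± 0.237 (SD, n = 4 each), which differ by -0.01. The position of *Ctrl* 3 depended on the form of the score also where *Npas2*, at 3 counts in this liver, was kept, since it ranked 4 of 8 from the lowest with *Clock* added and 5 of 8 with each gene scaled to unit SD. *Srsf10-kd* 1 was highest in every form of the score computed, and the lowest liver was *Srsf10-kd* 3 or *Ctrl* 3 in each.

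**Figure D4:**
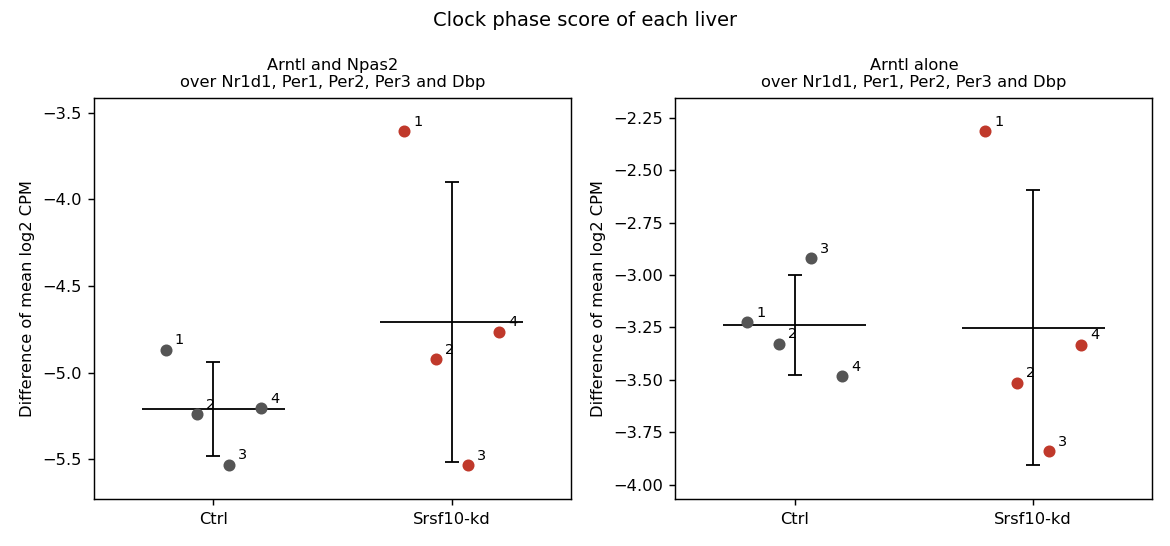
Difference of mean log2 CPM (vertical axis, not starting at 0) per liver, with *Arntl* and *Npas2* (left) or *Arntl* alone (right) against *Nr1d1*, *Per1*, *Per2*, *Per3* and *Dbp*. Points are livers with their replicate number, lines are means and bars are 1 SD; the group means differ by 0.50 on the left and -0.01 on the right, and *Srsf10-kd* 1 is highest in both.

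Some ratios of single genes set *Srsf10-kd* 3 apart and others did not. The log2 ratio of *Arntl* to *Nr1d1* was -3.72 in *Srsf10-kd* 3 and -3.65 in *Ctrl* 3. Both lay within the range of the other livers, from -4.60 in *Ctrl* 4 to -3.35 in *Srsf10-kd* 1. The log2 ratio of *Arntl* to *Dbp* was -6.00 in *Srsf10-kd* 3, -3.21 in *Srsf10-kd* 1 and -4.71 to -4.22 in the 6 other livers. The log2 ratio of *Nr1d1* to *Dbp*, 2 genes of the same arm of the score, was -2.28 in *Srsf10-kd* 3 and -1.06 in *Ctrl* 3 against -0.60 to 0.13 in the 6 others. That of *Per1* to *Per3* was -0.47 in *Srsf10-kd* 3, 0.07 in *Ctrl* 3 and 0.56 to 1.04 in the others. These 2 livers are also those that stood apart in the whole library or in its length slope, and the part of either in the ratios was not tested.

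Across the 8 livers, correlations of log2 CPM were computed for all 45 pairs of clock genes, of which 29 were above 0. By two-sided exact permutation over livers 6 pairs had an unadjusted Pearson p under 0.05, and 0 of 45 passed after Benjamini-Hochberg adjustment. With Spearman's rho 3 pairs had an unadjusted p under 0.05 and 0 of 45 passed. *Per1* and *Per2* had the smallest Pearson p (r = 0.82, permutation p = 0.0118, adjusted p = 0.217; rho = 0.76, p = 0.0368, adjusted p = 0.551), and r was 0.91 without *Ctrl* 3 and *Srsf10-kd* 3, the livers farthest out in *Per1*. *Per3* and *Dbp* followed (r = 0.77, permutation p = 0.0160, adjusted p = 0.217; rho = 0.76, p = 0.0368, adjusted p = 0.551), with r = 0.75 without *Ctrl* 3 and *Srsf10-kd* 1. The negative relation of *Arntl* and *Dbp* (r = -0.84, permutation p = 0.0209, adjusted p = 0.217; rho = -0.50, p = 0.216, adjusted p = 0.708) rests on *Srsf10-kd* 1 and *Srsf10-kd* 3, since r was 0.12 without them. *Npas2* and *Nr1d2*, a target and a member of its repressor pair, had r = -0.81 (permutation p = 0.0247, adjusted p = 0.217; rho = -0.90, p = 0.00456, adjusted p = 0.205), and r was -0.62 without *Ctrl* 3 and *Srsf10-kd* 1. *Arntl* and *Nr1d1* had r = 0.61 (permutation p = 0.104, adjusted p = 0.532; rho = 0.45, p = 0.267, adjusted p = 0.708), and r was 0.68 without *Srsf10-kd* 1 and *Srsf10-kd* 3. This sign was positive, although RNA of these genes is high at opposite times of day in the loop described above.

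A further list of 21 clock genes holds the other repressors, the ROR activators, the D-box factors beside *Dbp*, and the kinases and ubiquitin ligases that set how long PER and CRY last. Of these 20 were tested (*Rorb* was not), 3 were higher and 17 lower (median log2 fold change -0.11), 2 had an unadjusted p under 0.05 (21.8% of all genes did) and 0 passed the adjusted p in edgeR's quasi-likelihood test. The 2 were *Cry2*, the relative of *Cry1*, and *Gsk3b*, a kinase of clock proteins. *Cry2* was at 22.7 ± 3.29 CPM in the *Srsf10-kd*-labelled livers and 31.1 ± 6.88 CPM in *Ctrl* livers (log2 fold change -0.46, standard error 0.17, adjusted p = 0.186). It passed with limma-voom (-0.60, adjusted p = 0.0310) and with edgeR without *Ctrl* 3 and *Srsf10-kd* 3 (-0.61, adjusted p = 0.0471). *Gsk3b* was at 35.5 ± 3.66 and 42.0 ± 2.63 CPM (-0.24, adjusted p = 0.218), *Fbxw11*, an F-box gene, was at -0.22 (adjusted p = 0.264) and *Bhlhe41*, an E-box repressor, at -0.66 (adjusted p = 0.280).

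Of 20 genes known as clock outputs in the liver, 9 were higher and 11 lower (median log2 fold change -0.07), 3 had an unadjusted p under 0.05 (21.8% of all genes did) and 1 was called (0.071% of all genes were), *Ppara*, the fatty acid receptor gene. *Ppara* was at 177, 208, 168 and 234 CPM in *Ctrl* 1 to 4 and at 88.4, 84.6, 77.8 and 82.3 CPM in *Srsf10-kd* 1 to 4. Its log2 fold change was -1.24 (standard error 0.13, edgeR quasi-likelihood adjusted p = 0.0166), and the adjusted p exceeded 0.05 in 4 fits with 1 liver left out, in which edgeR called 0 genes in all and the log2 fold change of *Ppara* was -1.27 to -1.21, namely those without *Ctrl* 2 (0.106) or without *Srsf10-kd* 1 (0.0823), 2 (0.0536) or 4 (0.0969). Among the *Srsf10-kd*-labelled livers *Ppara* was highest in *Srsf10-kd* 1 and lowest in *Srsf10-kd* 3, the livers at opposite ends of the phase score. The other livers did not keep this order. *Srsf10-kd* 4 had a higher score than *Srsf10-kd* 2 but less *Ppara*. Among *Ctrl* livers *Ppara* was highest in *Ctrl* 4 (score -5.20), while *Ctrl* 1 had the highest score (-4.87). A relation of *Ppara* to the score was not tested. *Wee1*, a cell cycle kinase gene with E-boxes, was at 5.26 ± 1.61 and 9.09 ± 2.02 CPM (log2 fold change -0.79, adjusted p = 0.134). *Cyp2a4*, a P450 gene under D-box control, had a log2 fold change of 2.93 (adjusted p = 0.247) that came from *Srsf10-kd* 2 at 47.1 CPM, with the other 7 livers at 0.316 to 4.28 CPM.

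Signals that can reset the liver clock were examined with 4 lists of 10 genes each, and 0 genes of these passed the adjusted p in edgeR's quasi-likelihood test (the unadjusted p was under 0.05 in 21.8% of all genes). Of the heat shock and cold response genes 5 were higher and 5 lower (median log2 fold change 0.02), and 1 had an unadjusted p under 0.05. This was *Hspa1a*, an inducible HSP70 gene, at 5.15 ± 0.860 CPM in the *Srsf10-kd*-labelled livers and 3.38 ± 0.251 CPM in *Ctrl* livers (0.61, adjusted p = 0.116). The next were *Hsph1* (-0.44, adjusted p = 0.251), *Hspa8* (-0.40, adjusted p = 0.261) and *Hspe1* (0.36, adjusted p = 0.284), chaperone genes.

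Of the glucocorticoid response genes 6 were higher and 4 lower (median 0.21), and 5 had an unadjusted p under 0.05, 3 of them higher and 2 lower, where 21.8% of all genes did. *Dusp1*, a phosphatase gene (0.52, adjusted p = 0.129), *Tsc22d3*, which encodes GILZ (0.64, adjusted p = 0.164), and *Sgk1*, a kinase gene (0.38, adjusted p = 0.198), were above 0, while *Zbtb16*, a transcription factor gene, was at -0.88 (adjusted p = 0.151). The list thus held members of both signs. Of the fasting-induced genes listed 0 were higher and 10 lower (median -0.15) and 1, *Irs2*, an insulin receptor substrate gene, had an unadjusted p under 0.05. The list was chosen with earlier results known and does not hold *Pdk4*, which the study names as a PPARα-responsive gene. *Pdk4* was at 16.6 ± 11.9 and 16.3 ± 6.19 CPM (log2 fold change 0.03, edgeR quasi-likelihood adjusted p = 0.975). The shared sign thus describes the listed genes only. *Irs2* was at 2.79 ± 0.936 and 9.39 ± 3.54 CPM (-1.75, standard error 0.32, adjusted p = 0.0826), and it passed with DESeq2, limma-voom, no filter on low counts and the fits without *Ctrl* 3, alone or with *Srsf10-kd* 3. *Cpt1a* (-0.66, adjusted p = 0.237) and *Pck1* (-0.30, adjusted p = 0.440), genes of enzymes of fat burning and glucose production, did not pass.

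Of the feeding-induced lipid and glucose genes 6 were higher and 4 lower (median 0.14), and 0 had an unadjusted p under 0.05. *Scd1* (0.80, adjusted p = 0.316), a desaturase gene, and *Thrsp* (1.20, adjusted p = 0.367), a lipogenic gene, varied widely. *Thrsp* was at 81.1, 50.1, 40.9 and 12.6 CPM in *Ctrl* 1 to 4 and at 21.2, 119, 259 and 24.4 CPM in *Srsf10-kd* 1 to 4, so that *Srsf10-kd* 1 and *Srsf10-kd* 3 differed here as they did in *Dbp*. *Elovl6* (-0.29, adjusted p = 0.314) and *Acly* (-0.27, adjusted p = 0.323) are other genes of fat synthesis.

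The samples carried the markers of liver. The summed level of 7 hepatocyte markers was 85840 to 105200 CPM in the *Srsf10-kd*-labelled livers and 67850 to 95420 CPM in *Ctrl* livers, with 4 higher and 3 lower. Kupffer cell and macrophage markers (8 genes) summed to 182 to 329 and 225 to 326 CPM, endothelial markers (7) to 203 to 237 and 213 to 241 CPM, stellate cell and fibroblast markers (7) to 197 to 320 and 223 to 265 CPM, and lymphocyte markers (6) to 2.25 to 3.58 and 2.14 to 3.42 CPM, in the same order. Cholangiocyte markers, of the bile duct, were the list whose sums did not overlap, at 46.5 to 68.6 against 31.4 to 39.1 CPM. All 5 of them were higher, 3 had an unadjusted p under 0.05 (21.8% of all genes did), 2 were higher without overlap (6.73% of all genes were) and 0 were called by edgeR, while *Krt19* passed with DESeq2 and limma-voom. None of the markers tested was at 0 in all livers. *Clock*, the clock gene whose groups did not overlap, was lower where these markers were higher, and their part in its level was not tested.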

How the data were processed

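Poly(A)-selected RNA of 8 livers was sequenced with a directional kit. Reads were mapped to GRCm38 by the authors using STAR (2.7.7a in the submitters' processing notes), and raw read counts per gene were deposited. The annotation release and strand column are not given in the sources used here. Of 45706 identifiers, 45143 are in GENCODE M21.

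Counts were tested in R 4.3.3 with edgeR 4.0.16 (TMM, filterByExpr, quasi-likelihood fit on group, two-sided, Benjamini-Hochberg over 15491 genes, threshold 0.05). The study used DESeq2, here an alternative (version 1.42.0), beside limma 3.58.1 (voom). Log2 CPM used a prior count of 2. Single genes had exact permutation tests over 70 assignments, and Python 3.11.15 with scipy 1.17.1 gave intervals and correlations. No library was a duplicate of another (28 pairs, chi-square per degree of freedom of at least 34.2). The sources do not say that livers were handled separately throughout, and p-values measure the spread between these samples. Depth was 50456404 to 59697241 counts per liver, and counting intervals cover counting error only.

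Alternatives were other scalings, filters, a replicate block, a lowess correction (span 0.5) on transcript length, each liver left out, and, added after the data were seen, *Ctrl* 3 and *Srsf10-kd* 3 both left out and *Npas2* left out of the score. The clock genes and all lists (other clock genes, clock outputs, temperature, glucocorticoid, fasting and feeding genes, and 6 sets of cell markers) were chosen with earlier results of these data known. Named are the 10 clock genes, *Srsf10*, *Cry2*, *Ppara*, the called genes and 4 smallest p of each pathway list, and the 3 genes most like and 3 most unlike the phase score. Of the genes this rule names, 2 are not reported here. *Krt19* and *Pdk4* were named after their values were seen. The hepatocyte marker *Tf* was not matched. Scripts were tested on simulated counts.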

Additional observations from a re-analysis of the deposited data

Results flagged for a closer look

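The lowest *Ctrl* value of *Arntl*, 3.54 CPM in *Ctrl* 3, stood apart from *Ctrl* 1, 2 and 4, which lay between 4.42 and 4.57 CPM. The gap to the nearest liver was 0.868 of the group's range, beyond Dixon's 95% critical value for 4 samples. Of 28 groups of 4 values examined 1 was beyond it, and chance gives about 1.4.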

How the results depend on the processing

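The count of all genes past adjusted p 0.05 was 11. It was 824 with DESeq2, 1814 with limma-voom, 46 with no filter on low counts, 59 with the replicate block, 1342 without *Ctrl* 3 and *Srsf10-kd* 3, and 0 to 544 with 1 liver left out (544 without *Ctrl* 3, 64 without *Srsf10-kd* 3, 4 without *Ctrl* 1, 5 without *Ctrl* 4 and 0 without *Ctrl* 2 or *Srsf10-kd* 1, 2 or 4). The fits with 0 genes had 2154 to 3656 genes at an unadjusted p under 0.05. Among clock genes 0 were called, and 1 (*Clock*) with DESeq2, limma-voom and without *Ctrl* 3 and *Srsf10-kd* 3. Over the pathway lists 1 gene was called, against 6 with DESeq2, 10 with limma-voom, 2 with no filter, 2 with the block, 7 without both livers and 0 to 4 with 1 liver left out (4 without *Ctrl* 3). Of the correlations 1 pair passed the adjusted permutation p with the length trend removed, *Arntl* and *Nr1d2* (r = -0.94, adjusted p = 0.0246), whose r was -0.41 before. Fold changes that turned were not past the threshold in any fit. *Cry1* was at -0.49 with limma-voom, -0.031 with the block, -0.25 without both livers and -0.19 to 0.21 with 1 liver left out. *Dbp* was at -0.25 with limma-voom, -0.0085 with the block, -0.062 with the length trend removed, -0.24 without both livers and -0.25 to 0.34 with 1 left out. *Per3* was at 0.17 with the length trend removed and at -0.26 to 0.11 with 1 left out, and *Arntl* at -0.35 to 0.010. The cause was not tested. The phase score difference of 0.50 was 0.14 to 0.78 with 1 liver left out, 0.67 without both livers, 0.24 with *Clock* added and -0.01 without *Npas2*.

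The correlation of deviations of same-numbered livers was -0.18, 0.21, 0.27 and 0.22, and 5 of 8 livers were closest to the liver of their own number in the other group. Each liver had 4 livers of the other group to be closest to. With 1 of the 4 pairs below 0 and no pairing in the sources, a shared origin is not established. The block changed no adjusted call among the clock genes, while 3 of 10 (*Clock*, *Nr1d1* and *Npas2*) had an unadjusted p under 0.05 with it, where 4336 of 15491 genes did, against 1 of 10 without it. With limma-voom this count was 4 of 10, where 4871 of 15491 genes did, and with the length trend removed it was 0 of 10, where 2398 did. With at least 10 counts in every liver *Npas2* was not tested. Depth limits *Npas2* alone among the clock genes, with 3 to 50 counts.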

Other observations

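Among 10958 genes other than the clock genes with a mean log2 CPM of at least 1, those whose log2 CPM followed the phase score most closely over the 8 livers were *Ly6d*, a surface antigen gene (Pearson r = 0.93, Spearman rho = 0.91, 2.29 to 11.6 CPM), *Hacl1*, a peroxisomal enzyme gene of fatty acid alpha-oxidation (0.90, 0.93, 304 to 507 CPM), and *Ugt2b35*, a glucuronosyltransferase gene (0.90, 0.91, 166 to 203 CPM). Those that ran against it most were *Zbtb1* (-0.92, -0.91, 9.92 to 11.9 CPM), *Lmnb1*, the lamin B1 gene (-0.90, -0.86, 3.73 to 5.59 CPM), and *Rnf139* (-0.89, -0.88, 39.6 to 46.4 CPM). They were picked as the extremes, so these values are a description, and all points share the same 8 libraries.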
